A study of Homo sapiens with 10 samples.

Results

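The promoters of stand-alone lncRNA genes were examined for histone acetylation in a pair of prostate cancer cell lines. A gene was included when GENCODE classed it as lncRNA on chromosomes 1 to 22 and X and every one of its transcription start sites (TSSs) lay more than 5 kb from any TSS of a protein-coding gene. This rule, which used no acetylation value, selected 12242 of 18756 lncRNA genes, with 30751 distinct TSSs. The promoter of each TSS was taken as the 2000 bp before it and the 500 bp after it. The cells were C4-2B, a human line of castration-resistant prostate adenocarcinoma, and C4-2BER, derived from it by continuous exposure to enzalutamide, an antiandrogen drug, and labelled as neuroendocrine-like. No other genotype or treatment was given for either line, and C4-2BER is 1 derived line, so resistance, lineage state and drug exposure cannot be told apart. H3K27ac and H3K18ac were measured by ChIP-Seq in 2 libraries per mark and line, beside 1 input library per line, and the authors pooled the libraries of a mark and line before calling peaks. Each promoter therefore has 1 value per mark and line with no replicate error, and every comparison between the lines below is a description of pooled libraries without a test.

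Long noncoding RNAs are transcripts that are not translated into protein. Many of them start next to a protein-coding gene and share its promoter, whereas stand-alone ones have a start site of their own, often in chromatin that also acts as an enhancer. Acetylation of histone H3 at lysine 27 or lysine 18 is laid down by the coactivators p300 and CBP and marks nucleosomes beside active promoters and enhancers. In prostate cells lncRNAs are known as lineage-restricted transcripts, and several are used as tumour markers.

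The level of a promoter is the fold enrichment of its strongest overlapping peak, which is the ChIP signal of the peak over its local background, as the authors' peak caller gave it. It is an average over a broad peak and is relative to the background in the pooled libraries of that list alone. A promoter was counted as increased in C4-2BER when it had a peak in that line only or a level at least 2 times that in C4-2B, and as decreased in the mirrored case. No list holds read counts, so the depth is unknown. Intervals are 95% Wilson intervals for shares and 95% order-statistic intervals for medians, and they cover counting error or spread over genes only. Neighbouring members can share a peak: the 2782 C4-2BER members with H3K27ac rested on 2504 distinct strongest peaks, and the 5747 with H3K18ac on 5292.

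The promoters of 7 named members are shown to set the groups described further on beside their base composition. They run from 250 bases upstream of the canonical TSS to the first 50 transcribed bases, on the strand of the gene, in GRCh38, and capitals mark CG dinucleotides. They were taken from the named members, all with a gene symbol, up to 2 per group, whose strongest peaks all overlapped this window.
Acetylated in C4-2BER only:
LINC01587 (chr4:5524319-5524618, plus strand): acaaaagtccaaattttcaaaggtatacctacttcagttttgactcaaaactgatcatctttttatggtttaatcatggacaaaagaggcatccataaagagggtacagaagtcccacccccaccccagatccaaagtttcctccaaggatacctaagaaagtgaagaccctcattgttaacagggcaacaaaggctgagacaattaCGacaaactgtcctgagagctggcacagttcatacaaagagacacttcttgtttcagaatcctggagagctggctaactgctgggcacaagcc
Acetylated in C4-2B only:
LINC02437 (chr4:184988747-184989046, plus strand): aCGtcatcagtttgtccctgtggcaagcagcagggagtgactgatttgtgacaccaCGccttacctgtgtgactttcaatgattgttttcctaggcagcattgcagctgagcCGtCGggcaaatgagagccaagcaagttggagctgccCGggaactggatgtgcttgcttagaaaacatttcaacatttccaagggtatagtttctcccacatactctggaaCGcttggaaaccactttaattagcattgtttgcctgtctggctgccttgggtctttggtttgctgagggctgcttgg
Acetylated in both lines, with the largest rises in C4-2BER:
LINC00900 (chr11:115760257-115760556, minus strand): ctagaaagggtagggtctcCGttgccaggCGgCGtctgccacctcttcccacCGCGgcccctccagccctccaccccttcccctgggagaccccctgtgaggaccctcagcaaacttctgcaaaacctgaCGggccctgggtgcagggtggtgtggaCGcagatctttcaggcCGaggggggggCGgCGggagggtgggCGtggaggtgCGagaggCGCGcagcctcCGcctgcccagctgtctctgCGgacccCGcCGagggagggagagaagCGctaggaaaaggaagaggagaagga
LINC01556 (chr6:28943627-28943926, plus strand): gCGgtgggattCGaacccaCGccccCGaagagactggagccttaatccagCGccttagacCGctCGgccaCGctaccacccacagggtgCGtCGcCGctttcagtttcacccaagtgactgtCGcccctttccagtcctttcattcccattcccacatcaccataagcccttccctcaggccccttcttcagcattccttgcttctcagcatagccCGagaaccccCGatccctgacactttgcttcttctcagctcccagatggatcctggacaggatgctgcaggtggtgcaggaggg
Acetylated in both lines, with the largest falls in C4-2BER:
LINC01238 (chr2:242088408-242088707, minus strand): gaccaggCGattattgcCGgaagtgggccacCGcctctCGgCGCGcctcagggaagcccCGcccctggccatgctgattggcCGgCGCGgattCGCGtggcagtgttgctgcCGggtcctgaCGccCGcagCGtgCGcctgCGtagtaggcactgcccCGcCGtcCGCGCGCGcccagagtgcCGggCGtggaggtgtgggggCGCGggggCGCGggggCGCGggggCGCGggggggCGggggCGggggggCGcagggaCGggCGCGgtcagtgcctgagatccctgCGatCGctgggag
Acetylated most strongly in all 4 lists:
LINC03072 (chr7:128531020-128531319, minus strand): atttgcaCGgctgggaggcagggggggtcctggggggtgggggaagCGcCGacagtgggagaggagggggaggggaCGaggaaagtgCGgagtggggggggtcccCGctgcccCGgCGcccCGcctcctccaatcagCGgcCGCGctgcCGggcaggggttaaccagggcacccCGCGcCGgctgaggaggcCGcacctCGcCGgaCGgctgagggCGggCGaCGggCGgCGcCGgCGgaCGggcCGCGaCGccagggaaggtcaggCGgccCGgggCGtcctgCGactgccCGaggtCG
MIR17HG (chr13:91347447-91347746, plus strand): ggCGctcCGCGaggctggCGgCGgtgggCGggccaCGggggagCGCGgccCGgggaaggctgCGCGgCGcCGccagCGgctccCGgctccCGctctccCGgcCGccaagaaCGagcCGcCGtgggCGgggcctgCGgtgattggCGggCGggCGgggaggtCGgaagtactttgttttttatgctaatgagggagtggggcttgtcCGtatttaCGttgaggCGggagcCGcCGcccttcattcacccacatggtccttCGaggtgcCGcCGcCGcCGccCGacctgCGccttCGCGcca
The C4-2BER-only promoter of LINC01587 held 1 CG dinucleotide, and the C4-2B-only promoter of LINC02437 held 6. The strongest peaks of LINC01587 began 0.013 kb downstream of its TSS, so its CG and the upstream bases shown lay outside them. LINC01238, among the largest falls, held 42, and LINC03072 and MIR17HG, among the strongest promoters, held 37 and 42. LINC00900 and LINC01556, among the largest rises, held 19 and 14. Over all members the median was 3, against 2 at the 133 members increased in both marks, 5 at the 85 decreased in both and 8 at the 2080 with a peak in all 4 lists.

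Most stand-alone lncRNA promoters had no H3K27ac peak, while H3K18ac was present in either line at 54.8% of them. H3K27ac was found at 2782 members in C4-2BER (22.7%, interval 22 to 23.5) and at 2603 in C4-2B (21.3%, 20.6 to 22). H3K18ac was found at 5747 (46.9%, 46.1 to 47.8) and 5735 (46.9%, 46.0 to 47.7). Protein-coding promoters had H3K27ac at 74.4% and 74.0%, and the 6514 lncRNA genes with a TSS near a protein-coding one at 65.9% and 64.5%. Protein-coding genes have more annotated TSSs than members (medians of 5 and 1) and so more windows. The part of this in the shares, and in the levels below, was not tested. Of the 12242 members, 5470 (44.7%) had no peak of either mark in either line, compared with 10.6% of protein-coding genes.

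Where a peak was present it was weaker than at protein-coding promoters. The median H3K27ac level of members was 5.14 (C4-2BER) and 5.38 (C4-2B), against 12.5 and 18.2 at protein-coding promoters. The median H3K18ac level was 2.97 and 3.12, against 5.67 and 7.12. The strongest H3K27ac peak covered its own TSS at 68.7% of members with a peak in C4-2BER, against 93.8% of protein-coding genes. Only 66 of the 2782 C4-2BER members and 60 of the 2603 C4-2B members owed their H3K27ac value to a peak that also covered a protein-coding TSS.

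**Figure D1:**
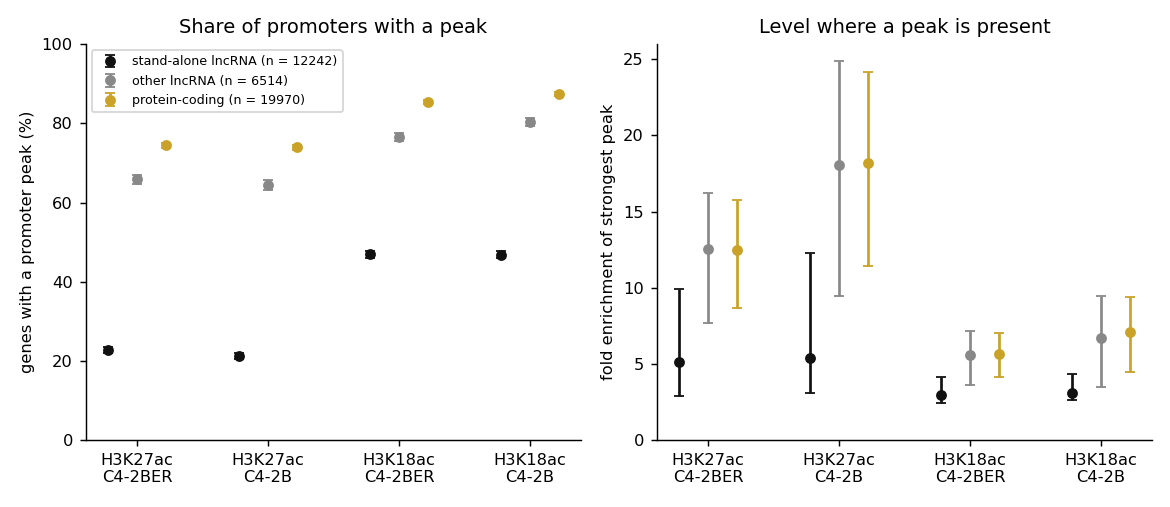
Left, percent of genes with a promoter peak in each of the 4 lists, with 95% Wilson intervals; right, median fold enrichment of the strongest promoter peak where one was present, with bars from the first to the third quartile. Stand-alone lncRNA genes sit lowest in every list, at 21.3% to 22.7% for H3K27ac against 74.0% to 74.4% of protein-coding genes.

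The marks were nested rather than interchangeable. Of members with H3K27ac, 96.4% in C4-2BER against 97.1% in C4-2B also had H3K18ac, but of members with H3K18ac only 46.7% and 44.1% had H3K27ac. At protein-coding promoters the latter shares were 86.7% and 84.4%. H3K18ac without H3K27ac in either line occurred at 3553 members (29.0%), against 12.6% of protein-coding genes, and the reverse at 67. The numbers of H3K27ac and H3K18ac peaks in the lists differ widely (72971 and 197948 in C4-2BER), which bears on these shares, and its part in them was not tested.

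The share of members with H3K27ac did not step at the 5 kb limit, while the H3K27ac levels differed across it. Among the 395 members whose nearest protein-coding TSS was 5 to 6 kb away, 32.9% had H3K27ac in C4-2BER against 29.4% in C4-2B. Among the 403 lncRNA genes just inside the limit, at 4 to 5 kb, the shares were 32.5% and 29.5%. The median H3K27ac levels were 4.51 and 4.53 just outside the limit, and 6.06 and 6.12 just inside it. H3K18ac was present at 47.6% and 52.7% outside, and at 50.6% and 56.6% inside, with median levels of 3.20 and 3.05 outside and 3.23 and 3.20 inside.

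Acetylation of stand-alone promoters became rarer with isolation. A peak of H3K27ac in either line was present at 35.4% of members 5 to 10 kb from a protein-coding TSS (33.1 to 37.8) and at 13.8% of those more than 250 kb away (12.4 to 15.4). For H3K18ac the shares were 60.7% and 36.6%, and they changed little up to 100 kb, where 59.3% still had a peak. The share also grew with the number of annotated TSSs, from 21.9% of the 8267 members with 1 TSS to 57.9% of the 430 with 11 or more for H3K27ac. A gene with more TSSs has more windows in which a peak can fall, so this order is in part fixed by the count. With the canonical TSS alone, 2521 members had H3K27ac in the C4-2BER list against 2342 in that of C4-2B.

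**Figure D2:**
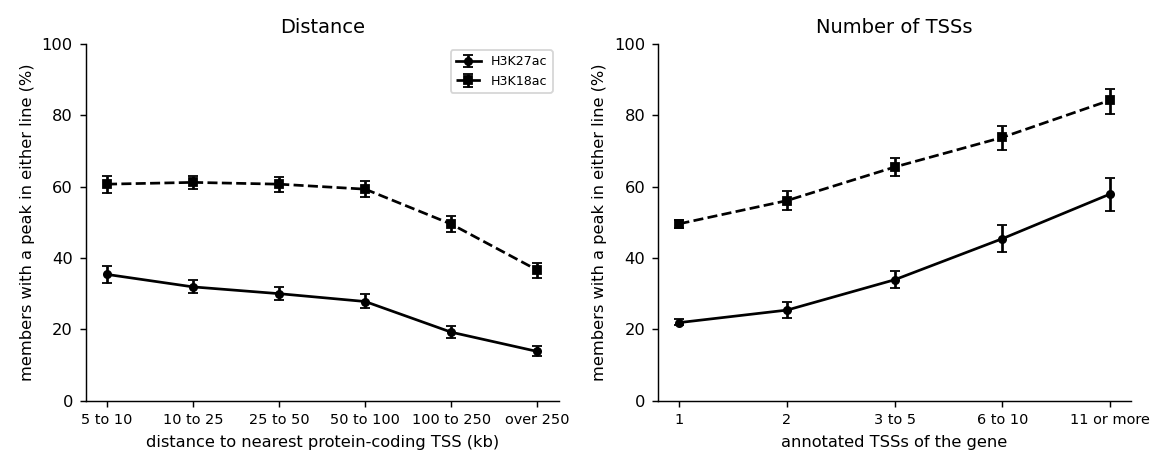
Percent of members with a peak of H3K27ac (circles) or H3K18ac (squares) in either line, by distance to the nearest protein-coding TSS in kb (left) and by number of annotated TSSs (right), with 95% Wilson intervals. H3K27ac goes from 35.4% at 5 to 10 kb to 13.8% beyond 250 kb, and from 21.9% with 1 TSS to 57.9% with 11 or more.

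The share also differed by kind of gene. Every one of the 14 stand-alone snoRNA host genes, which release small nucleolar RNAs from their introns, had H3K27ac in both lines, with median levels of 11.1 in C4-2BER against 16.9 in C4-2B. Of 65 microRNA host genes 31 had H3K27ac in either line (47.7%, 36.0 to 59.6). Genes with another symbol had 40.2% of 645, genes named LINC 31.4% of 2094, and genes with an Ensembl identifier only had 23.6% of 8849. Members outside protein-coding genes had H3K27ac at 27.6%, those inside one on the opposite strand at 22.9% and those inside one on the same strand at 21%.

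The question of the cell line comparison is which of these promoters differ after the change to enzalutamide resistance. For H3K27ac, 673 members were increased in C4-2BER (5.5%, interval 5.11 to 5.92), against a background of 4.54% over all 38726 lncRNA and protein-coding genes. Decreased members numbered 534 (4.36%, 4.01 to 4.74), against a background of 7.09%. For H3K18ac 990 members were increased (8.09%) and 984 decreased (8.04%), against backgrounds of 4.13% and 6.66%. Most of the 12242 members had no H3K27ac peak and could not be called, and among genes with a peak in either line both kinds of call were more frequent at members than over all genes. Of members with H3K27ac 20.9% were increased and 16.6% decreased, against 7.62% and 11.9% of all genes with H3K27ac. Of members with H3K18ac the shares were 14.8% and 14.7%, against 5.34% and 8.61%. Members had more increases than decreases in H3K27ac and about equal numbers in H3K18ac, although the H3K18ac balance turned with the peak threshold, from 0.69 increases per decrease at a fold enrichment of at least 4 to 2.09 at a −log10 q-value of at least 5. Protein-coding promoters had 700 increases and 1657 decreases in H3K27ac, and 382 and 1051 in H3K18ac.

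Most calls at stand-alone promoters were of presence and not of level. Of the 673 H3K27ac increases 616 were peaks found in C4-2BER only, and of the 534 decreases 437 were peaks found in C4-2B only. For H3K18ac the numbers were 970 of 990 and 958 of 984. Calls by level, before rescaling, had the other order: 57 increases against 97 decreases in H3K27ac, and 20 against 26 in H3K18ac. These peaks were low: the median H3K27ac level was 2.71 where C4-2BER alone had a peak and 2.63 where C4-2B alone did, against 6.65 and 6.92 at the 2166 shared members. A level of at least 4 was reached by 114 of the 616 (18.5%) and by 46 of the 437 (10.5%). For H3K18ac it was reached by 32 of 970 and by 33 of 958. A peak close to the lists' lower end can be present in 1 list and missed in the other by a small margin, and the lists do not show the signal where no peak was called.

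At members with a peak in both lines, levels were slightly lower in C4-2BER. The median log2 ratio of C4-2BER to C4-2B was -0.20 for H3K27ac (-0.22 to -0.18, 2166 members) and -0.14 for H3K18ac (-0.15 to -0.13, 4777 members). At protein-coding promoters the medians were -0.51 and -0.33. These directions depend on scaling: in each class the log2 ratio was lowest at the highest levels, and after removal of a robust line fitted over all genes with peaks in both lines the medians of members were 0.07 and 0.03. Compared at like levels the classes lay closer together. Members with a mean H3K27ac level of 12 or more had a median log2 ratio of -0.46, and protein-coding promoters of that level -0.58. At mean levels of 4 to 6 the values were 0.05 and -0.08.

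**Figure D3:**
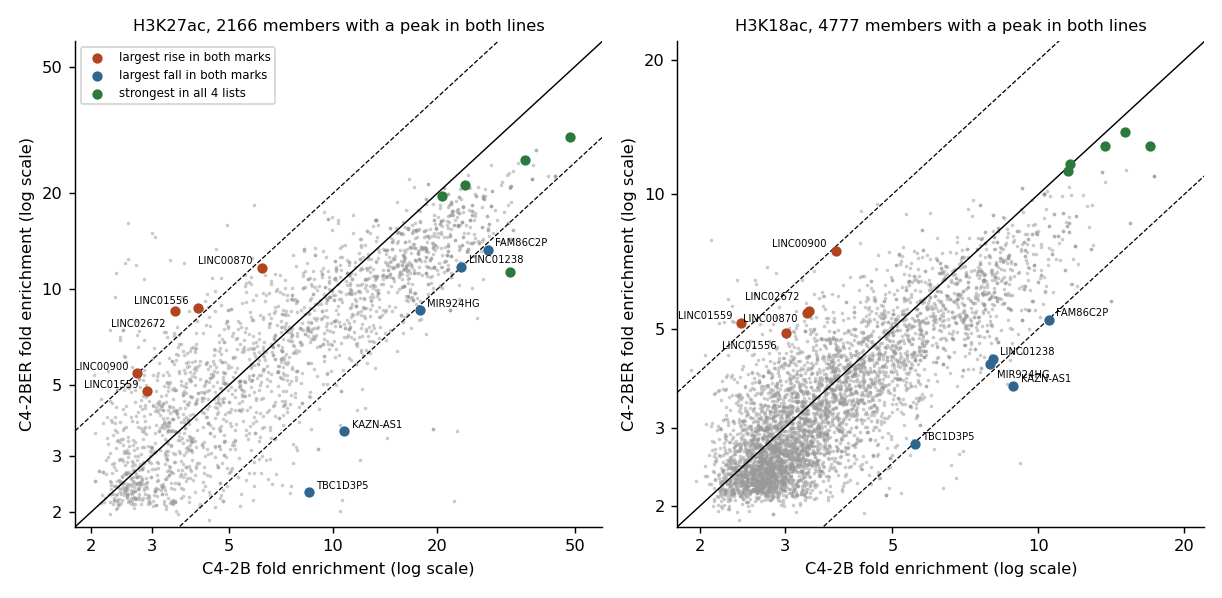
Fold enrichment in C4-2BER against C4-2B, both on log scales, for members with a peak in both lines (grey); the solid line is equality and the dashed lines a ratio of 2 either way. Coloured points are the named members with the largest rises, the largest falls and the strongest levels; most points at high levels lie below equality, where the median log2 ratio of H3K27ac is -0.46.

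The balance between the lines turned with base composition. Members were split into 5 groups of about equal size by the GC content of the promoter window of the canonical TSS. In the lowest group (median GC 35.9%) 6.4% of members had H3K27ac in either line and 17.7% had H3K18ac, and in the highest (54.8%) 54.1% and 88.8%. Peaks of H3K18ac found in C4-2BER only outnumbered those in C4-2B only by 173 to 83 in the lowest group, by 296 to 119 in the second and by 319 to 176 in the third. In the fourth the order turned, to 161 against 257, and in the highest there were 21 against 323. For H3K27ac the third group had 162 against 58, and the highest 132 against 178.

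A like turn was present at protein-coding promoters, and the lists as a whole differed in GC content. Protein-coding promoters in the same GC ranges had 71 H3K18ac peaks in C4-2BER only against 41 in C4-2B only in the lowest, and 13 against 353 in the highest. In the third range they had 103 against 116, where members had 319 against 176, so their turn came at a lower GC content. The median GC content of all peaks was 50.9% in C4-2BER against 53.9% in C4-2B for H3K27ac, and 50.8% and 53.8% for H3K18ac. GC content therefore moved with the cell line across the lists in both marks, and its part in the one-line peaks was not tested. Members have a lower GC content than protein-coding promoters (medians of 43.9% and 52.4%), so more of them fall in the range where C4-2BER-only peaks are the more frequent.

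**Figure D4:**
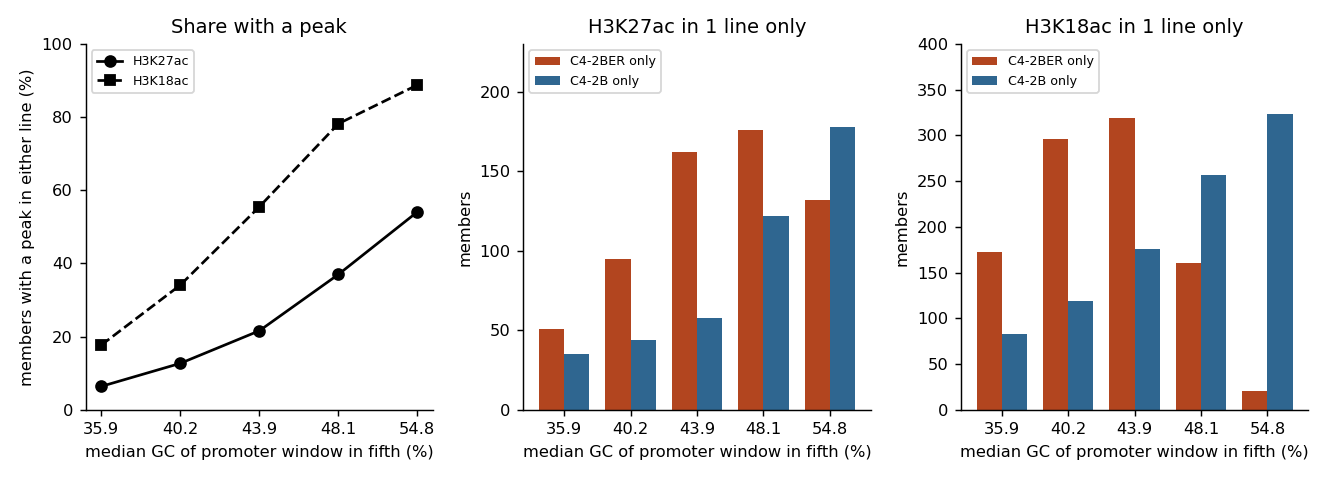
Left, percent of members with a peak in either line by group of promoter GC content (x axis, median GC in percent); middle and right, number of members with an H3K27ac or H3K18ac peak in C4-2BER only or C4-2B only. C4-2BER-only H3K18ac peaks go from 173 in the lowest group to 21 in the highest, and C4-2B-only peaks from 83 to 323.

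Members increased in both marks numbered 133 (1.09%, background 0.677%), and those decreased in both 85 (0.694%, background 1.12%). At protein-coding promoters there were 70 and 231. Of the 133, 120 had both marks in C4-2BER only, and of the 85, 66 had both in C4-2B only. Opposite changes in the marks occurred at 24 members. The promoters increased in both marks had a median GC content of 42%, against 50.3% at those decreased in both and 50.4% at those changed in neither but acetylated in both. Presence calls in a narrow window can also turn on a peak just outside it: of the 120, 50 had no C4-2B peak of either mark within 5000 bp of any TSS, and of the 66, 27 had no C4-2BER peak in that range.

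Of the members with a symbol acetylated in C4-2BER alone in both marks, the strongest were LINC01924, LINC00462, LINC00572, LINC01587 and LINC02404, all known by number. Of the 120 such members, 7 without a symbol were passed over before the last one named. LINC00462, inside a protein-coding gene on the opposite strand on chromosome 13, had an H3K27ac level of 6.76 and an H3K18ac level of 5.71 in C4-2BER and no peak of either mark in C4-2B, where the nearest lay 5.12 and 5.11 kb from the TSS. LINC01924 on chromosome 18 had levels of 7.47 and 5.80 in C4-2BER at an alternative TSS, in peaks 40.3 kb from the canonical one for H3K27ac, and no peak in C4-2B. LINC02404 on chromosome 12, 267 kb from BTG1, had 3.94 and 4.97 in C4-2BER and no peak in C4-2B. These levels were in the middle to upper part of the C4-2BER lists: 76.8% of H3K27ac peaks and 95% of H3K18ac peaks were lower than those of LINC00462. LINC00572 (7.69 and 4.88) had C4-2B peaks 1.20 and 1.28 kb downstream of its TSS, just outside the window. LINC01587, with levels of 4.75 and 4.16, had its nearest C4-2B peaks 5.84 and 5.52 kb away.

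Among genes with a symbol, the counterparts with both marks in C4-2B only were weaker. Of the 66 such members, 14 without a symbol were passed over before the last one named, so stronger ones are not shown. LINC00380 on chromosome 13 had an H3K27ac level of 3.91 and an H3K18ac level of 4.39 in C4-2B and no C4-2BER peak within 51.4 kb. LINC00608, near FEV on chromosome 2, had 4.13 and 3.11 in C4-2B, and LINC02437, 29.5 kb from HELT on chromosome 4, had 2.91 and 2.98, each with no C4-2BER peak in the window. Of the remaining pair, POM121L9P rests on the window's edge, and LINC01291 on peaks at an alternative TSS. POM121L9P, of the repeated POM121-like family, had 4.07 and 4.28 in C4-2B, from peaks that also covered a protein-coding TSS, and C4-2BER peaks began 2.10 and 2.07 kb from its TSS. LINC01291 had 2.84 and 2.88 in C4-2B. Its nearest C4-2BER peaks lay 1.82 and 1.48 kb from the canonical TSS, and its nearest C4-2B peaks 1.71 and 1.46 kb from it. These distances are not from the TSS that gave the call.

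Rises in C4-2BER among the 2080 members with a peak in all 4 lists were ranked by the mark with the smaller change. At genes with a symbol the largest rises were modest, and 10 members without a symbol were passed over. LINC00900, on chromosome 11 and 254 kb from CADM1, had H3K27ac levels of 5.45 in C4-2BER against 2.72 in C4-2B, and H3K18ac levels of 7.48 and 3.82, which are log2 ratios of 1.00 and 0.97. LINC02672, on chromosome 10, had H3K27ac levels of 8.58 and 3.50 and H3K18ac levels of 5.49 and 3.36. LINC00870, on chromosome 3 and 178 kb from RYBP, had H3K27ac levels of 11.7 and 6.24 with H3K18ac levels of 5.43 and 3.33. In each the C4-2BER value was the higher one in both marks. LINC01556, 19.9 kb from TRIM27 on chromosome 6, had 8.74 and 4.08, and 4.90 and 3.01. LINC01559 had 4.79 and 2.91, and 5.16 and 2.44, but its H3K27ac and H3K18ac peaks lay at different TSSs, and when 1000 bp either way of the TSS were used its H3K18ac log2 ratio was 0.47 in place of 1.08.

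At genes with a symbol the largest falls exceeded the largest rises before rescaling. For the falls 6 members without a symbol were passed over. In the top named pair this order turned after rescaling: the smaller of the 2 rescaled log2 ratios was 1.09 for LINC00900 and -0.95 for KAZN-AS1. KAZN-AS1, transcribed antisense within KAZN on chromosome 1, had H3K27ac levels of 3.59 in C4-2BER against 10.8 in C4-2B and H3K18ac levels of 3.73 against 8.88, which are log2 ratios of -1.60 and -1.25. MIR924HG, a microRNA host gene on chromosome 18, had H3K27ac levels of 8.60 and 17.8 and H3K18ac levels of 4.17 and 7.95. LINC01238, with the CG-rich promoter shown above, had H3K27ac levels of 11.8 and 23.5 with H3K18ac levels of 4.28 and 8.07. All of these were lower in C4-2BER in both marks. TBC1D3P5 (2.31 and 8.53, 2.76 and 5.57) and FAM86C2P (13.3 and 28.1, 5.24 and 10.5) belong to families with near-identical copies, between which reads could have been split, so their values are uncertain. After the robust line was removed, KAZN-AS1 had an H3K27ac log2 ratio of -1.36 and TBC1D3P5 one of -1.75, while MIR924HG had -0.61, FAM86C2P -0.49 and LINC01238 -0.45.

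**Figure D5:**
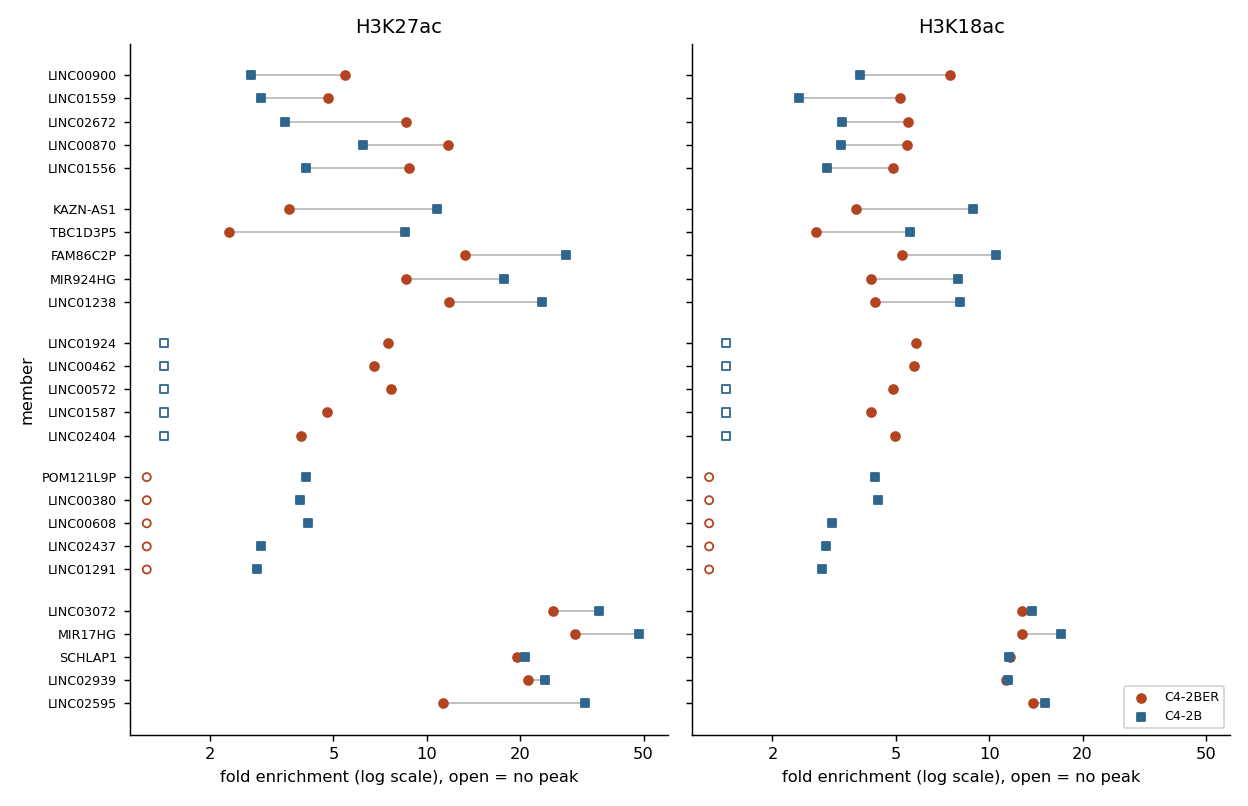
Fold enrichment (log scale) of 25 named members in C4-2BER (circles) and C4-2B (squares) for H3K27ac (left) and H3K18ac (right), in 5 blocks: largest rises, largest falls, both marks in C4-2BER only, both in C4-2B only, and strongest in all 4 lists. Open symbols at the left edge mark lists with no peak and have no level; the one-line blocks stay under 8, while MIR17HG reaches 48.3.

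The 5 members with a symbol that were strongest in all 4 lists were LINC03072, MIR17HG, SCHLAP1, LINC02939 and LINC02595. This rule fixes acetylation in both lines, and 4 members without a symbol were passed over. MIR17HG, the host of an oncogenic microRNA cluster on chromosome 13, had H3K27ac levels of 30.0 in C4-2BER against 48.3 in C4-2B, the highest H3K27ac level of any member in each line, and H3K18ac levels of 12.8 and 17.0. SCHLAP1, a lncRNA tied to aggressive prostate cancer, on chromosome 2, had H3K27ac levels of 19.6 and 20.7 with H3K18ac levels of 11.7 and 11.6. The levels of SCHLAP1 were thus almost the same in the lines, with log2 ratios of -0.08 and 0.01, or 0.52 and 0.50 after rescaling. LINC03072, on chromosome 7, had 25.5 and 36.0, and 12.8 and 13.7. LINC02939, on chromosome 22, had 21.2 and 24.1, and 11.3 and 11.5, in H3K27ac peaks 90270 and 90295 bp wide that also set the value of MIRLET7BHG, the host of a let-7 microRNA. LINC02595, on chromosome X, had H3K27ac levels of 11.3 in C4-2BER against 32.4 in C4-2B beside H3K18ac levels of 13.8 and 15.1. Its H3K27ac peak was 17399 bp wide in C4-2BER and 5110 bp in C4-2B, and the part of that width in the lower value was not tested.

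Of 16 stand-alone genes on the prostate list, 9 had H3K27ac in C4-2BER against 8 in C4-2B, with 1 increase and no decrease, which does not set the list apart from the 5.5% and 4.36% of all members. The median log2 ratio of the 8 shared was -0.13. DRAIC, a lncRNA lowered in castration-resistant disease, had H3K27ac levels of 15.4 in C4-2BER against 17.4 in C4-2B (log2 ratio -0.18, or 0.36 after rescaling). Its H3K18ac levels went the other way, at 9.69 and 7.34, and its strongest peaks lay at an alternative TSS. ARLNC1, a prostate-enriched lncRNA, had H3K27ac levels of 9.64 and 10.9 (log2 ratio -0.18, or 0.21 after rescaling). The increased gene was LINC01116, with an H3K27ac level of 2.17 in C4-2BER and no peak in C4-2B, while its H3K18ac levels were 3.75 and 4.57. NAALADL2-AS2 came close to the limit, at 7.94 and 4.05 for H3K27ac (log2 ratio 0.97, or 1.18 after rescaling). LINC00844 had an H3K18ac level of 2.504 in C4-2BER and no other peak. PCGEM1, a prostate-restricted lncRNA, had no peak of either mark in either line.

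Of 17 stand-alone genes on the neural list 5 had H3K27ac, all in both lines, with 0 increases and 0 decreases, beside shares of 5.5% and 4.36% over all members, so that the count does not set the list apart. The median log2 ratio of the 5 was -0.55, and after rescaling their values ran from -0.60 at CASC15 to 0.74 at LINC00632 around -0.04 at MIR9-1HG. The value of CASC15 sets peaks at different TSSs in the lines against each other. MIR9-1HG and MIR9-3HG, hosts of the brain-enriched microRNA miR-9, had H3K27ac levels of 12.3 and 14.2 in C4-2BER and 17.9 and 15.4 in C4-2B. LINC00461, a lncRNA of the developing brain, had 8.17 and 13.6, from peaks at different TSSs in the lines. H3K18ac was found at 13 of the 17, with 1 increase and 2 decreases, beside shares of 8.09% and 8.04% over all members. RMST, involved in neurogenesis, had a level of 2.62 in C4-2BER only, and MIR137HG and LINC01122 had 2.44 and 2.23 in C4-2B only. MEG3 and MIAT had H3K18ac in both lines and no H3K27ac in either.

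Widely expressed lncRNAs were acetylated in both lines, with CYTOR as the exception. All 26 stand-alone genes of that list had both marks in at least 1 line. There was 1 increase and 1 decrease in H3K27ac, and 1 decrease in H3K18ac. Over all genes the shares increased and decreased were 4.54% and 7.09% for H3K27ac and 4.13% and 6.66% for H3K18ac, so these counts do not set the list apart. The median H3K27ac log2 ratio was -0.41. It was -0.20 at all members with a peak in both lines and -0.46 at those with a mean level of 12 or more. The list is not matched to either, as it also holds lower genes such as H19 (3.79 in C4-2BER and 5.24 in C4-2B). NEAT1, the scaffold of paraspeckles, had H3K27ac levels of 20.8 in C4-2BER against 20.9 in C4-2B, and KCNQ1OT1, an imprinted antisense RNA, had 21.03 and 26.23. NORAD, which binds Pumilio proteins, had 16.5 and 24.9. SNHG17, a snoRNA host gene, was the decreased one, at 8.00 and 17.7 (log2 ratio -1.15, or -0.71 after the robust line was removed). CYTOR went opposite ways, with an H3K27ac level of 2.72 in C4-2BER only and an H3K18ac level of 3.81 in C4-2B only.

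The microRNA host genes had 5 increases and 5 decreases in H3K27ac and 7 and 3 in H3K18ac among 65. Over all genes the shares were 4.54% and 7.09% for H3K27ac and 4.13% and 6.66% for H3K18ac. All of the H3K27ac increases were low peaks found in C4-2BER only. MIR4435-2HG had a level of 4.16, MIR205HG, host of an epithelial microRNA, 3.77, MIR3681HG 3.40, MIR31HG 2.42 and MIR3142HG 2.22. Each of these had H3K18ac in both lines. The decreases were MIR924HG (described above), MIR4458HG, at 13.6 in C4-2BER against 27.99 in C4-2B (log2 ratio -1.04, or -0.46 after rescaling), and the C4-2B-only peaks of MIR3667HG (2.60), MIR202HG (2.36) and MIR3150BHG (2.29). MIRLET7IHG, host of a let-7 microRNA, had 22.6 and 43.9 and stayed just inside the limit, with a log2 ratio of -0.96. In H3K18ac MIR181A2HG had 4.43 in C4-2BER only, MIR548A1HG 2.80, MIR4432HG 2.68, MIR4290HG 2.49, MIR7515HG 2.39, MIR4280HG 2.19 and MIR5689HG 2.18. MIR2052HG (3.10), MIR137HG and MIR219A2HG (2.23) had it in C4-2B only. Several of these calls had a peak of the other line close by: measured from the canonical TSS, it lay 0.599 kb away for MIR181A2HG, 0.968 kb for MIR5689HG and 1.77 kb for MIR4290HG in H3K18ac, and 0.669 kb for MIR3667HG, 1.07 kb for MIR4435-2HG and 1.09 kb for MIR3150BHG in H3K27ac.

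Some one-line peaks of members with a symbol were high, and these were chosen after their values were seen. PRKCZ-AS1 had an H3K27ac level of 17.4 in C4-2B and no C4-2BER peak, with H3K18ac levels of 2.20 in C4-2BER against 6.35 in C4-2B. LINC03068 had 16.7 in C4-2B only for H3K27ac beside H3K18ac levels of 6.19 and 7.15. LINC01312, 51.9 kb from TCF21, had an H3K27ac level of 12.4 in C4-2BER and no other peak in any list. LINC03053, 47 kb from BCOR, had an H3K18ac level of 10.4 in C4-2B and no other peak.

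The calls at members were set beside those at the nearest protein-coding promoter. The nearest protein-coding promoter was counted as increased in H3K27ac for 3.71% of the 673 increased members, and as decreased for 8.62%. For the 534 decreased members the shares were 2.81% and 12.2%, and for the 2012 members acetylated in both lines without a call 3.23% and 8.90%. They were 5.16% and 9% for the 9023 members with no H3K27ac peak, and 3.51% and 8.3% over all protein-coding promoters. In H3K18ac the nearest promoter was increased for 2.42% of increased and 0.711% of decreased members, and decreased for 3.74% and 6.2%. For members acetylated in both lines without a call the shares increased and decreased were 1.01% and 4.52%. They were 1.82% and 6.38% for the 5537 members with no H3K18ac peak, and 1.91% and 5.26% over all protein-coding promoters. Members changed in both marks were also scattered: the 133 increased ones lay on 22 chromosomes and included 7 pairs within 200 kb of each other, and the 85 decreased ones lay on 21 and included 6 such groups.

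The 300-base windows at the canonical TSS, read from GRCh38 for all 12242 members, were searched on both strands for 6 short motifs. GGGCGG, the core of a GC box, was present in 13.6% of members and in 42.6% of all lncRNA and protein-coding promoters. It was present at 5.26% of the members increased in both marks, 17.6% of those decreased in both and 35.5% of those acetylated in both marks without a call. TATAAA had the opposite order, at 22.6%, 20% and 9.66%, against 18.6% of members and 12.7% of all promoters. CCAAT was present at 41.4%, 31.8% and 31.9% (members 37.2%, all promoters 35.7%), and AGAACA, a steroid receptor half-site, at 28.6%, 24.7% and 16.4% (members 23.5%, all promoters 15.4%). TGTTTAC, a forkhead core, was at 3.76%, 8.24% and 5.19% (4.88% and 3.27%), and TGACTCA, an AP-1 site, at 7.52%, 4.71% and 6.03% (6.67% and 4.64%). Members with no peak in any list had TATAAA at 25.1% and AGAACA at 26.1%, close to the group increased in both marks. A match is a description of letters only. In the sequences shown above, MIR17HG held GGGCGG 6 times and CCAAT once, and LINC01587 held TGACTCA 210 bases upstream, outside its strongest peaks.

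The identity of the lines was checked at protein-coding marker promoters. The luminal markers KLK3, KLK2, TMPRSS2, HOXB13, FOXA1, KRT8 and KRT18 had H3K27ac in both lines, with KLK3 at 13.8 in C4-2BER against 20.3 in C4-2B. Of the neuroendocrine markers, ENO2 had 14.2 in C4-2BER against 4.00 in C4-2B and SYP had 5.67 and 8.16, while CHGA, CHGB, NCAM1, INSM1 and SCG3 had no H3K27ac promoter peak in either line. Their H3K18ac levels were lower in C4-2BER at CHGA (2.29 against 4.31), SYP, NCAM1 and INSM1, and CHGB had 2.67 in C4-2B only. ENO2 (4.33 against 4.06) and SCG3 (3.13 against 2.81) were higher in C4-2BER.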

How the data were processed

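H3K27ac and H3K18ac ChIP-Seq was carried out on doubly fixed chromatin of C4-2B and C4-2BER. Reads were mapped to GRCh38 by the authors (bowtie2) and filtered for mapping quality, duplicates and blacklisted regions. The 2 libraries of a mark and line were then merged, and broad peaks were called (macs2). The submitters' processing notes name Bowtie2 2.2.3 and Trimmomatic 0.33, while the study's methods give a later Bowtie2 version, and which applies is not settled here. The authors deposited 4 peak lists in which each peak has a fold enrichment, a ratio of signal to local background, and a −log10 q-value. No per-library values were used here, and a few marker genes and sequences are not reported here.

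Promoters were built from GENCODE release 44. A peak overlapping a window by any base was counted, and the highest fold enrichment was taken as the promoter value. No peak ran past the end of a GRCh38 chromosome. A log2 ratio was also rescaled by a robust (Huber) line of ratio against mean level, fitted over all genes with peaks in both lines. GC content was read over the window of the canonical TSS. The overlap, the calls and the line were tested on simulated data.

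Named members were chosen by a rule. It took the 5 largest rises and 5 largest falls by the mark with the smaller change, the 5 strongest with both marks in each line alone, and the 5 strongest in all 4 lists, among genes with a symbol and 1 per shared peak. It also took genes of lists (prostate, neural, widely expressed, microRNA hosts) that were called or headed their list. The members and lists were chosen with earlier results of these data known. Alternatives changed the peak threshold, window, TSS set, distance, overlap, list size, scaling or call. Versions were Python 3.11.15, pysam 0.24.0, statsmodels 0.14.6, matplotlib 3.10.9, pandas 2.3.3, numpy 2.4.6 and scipy 1.17.1.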

Additional observations from a re-analysis of the deposited data

How the results depend on the processing

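No replicate could be left out, since the libraries were merged before peak calling. No paired analysis was possible because each mark and line has 1 pooled list. With peaks of fold enrichment of at least 4 only, members with H3K27ac numbered 1679 (C4-2BER) and 1571 (C4-2B), and those with H3K18ac 1555 and 1690. Increases and decreases were then 320 and 246 for H3K27ac and 305 and 442 for H3K18ac, and the medians of the log2 ratio -0.28 and -0.18. Under a −log10 q-value limit of 5, members with H3K18ac numbered 2738 in C4-2BER and 2368 in C4-2B, decreases 275 for H3K27ac and 335 for H3K18ac, members increased in both marks 214, and the H3K27ac median was -0.25. Beyond 10 kb from a protein-coding TSS 56 members were decreased in both marks. Rescaling by the robust line turned the medians to 0.0748 for H3K27ac and 0.0282 for H3K18ac. In an alternative chosen after seeing the data, a call by presence counted only where the other line had no peak of that mark within 5000 bp; members increased in both marks then numbered 54 and those decreased in both 41. The causes were not tested.

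H3K27ac increases outnumbered decreases under all 10 alternatives to the threshold, window, TSS set, distance, overlap, list size, scaling and call, by 1.09 times with equal numbers of peaks to 1.67 times with the q-value limit. These counts include calls of presence. Calls by level alone, as reported, were 57 increases against 97 decreases. H3K18ac increases per decrease ran from 0.69 with the fold limit to 2.09 with the q-value limit, so this order turned between these alternatives. Of the 133 members increased in both marks, 18 were so called with the fold limit and 50 with the q-value limit. Of 1361 recomputed log2 ratios of named and listed genes, 1350 stayed on the same side of the ratio limit, 11 crossed it and 0 of those past it changed sign.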

Other observations

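Members on chromosome X had 11 H3K27ac peaks found in C4-2BER alone and 1 found in C4-2B alone among 241 genes, beside 19 and 15 for H3K18ac. On chromosome 22 the H3K18ac numbers were 10 and 39 among 287 genes, and on chromosome 3 they were 67 and 25 among 616. These chromosomes were picked after their values were seen.

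CpG-rich promoters, with a GC content of at least 55% and an observed-to-expected CpG ratio of at least 0.6, were found at 255 members. Of these 67.1% had H3K27ac and 84.7% had H3K18ac in either line. Their median H3K27ac levels were 12 (C4-2BER) and 16.5 (C4-2B), and 0 of them had H3K18ac in C4-2BER only against 19 in C4-2B only.

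Peaks found in 1 line only were narrower as well as lower. The median width of H3K27ac peaks was 819 bp (C4-2BER alone) and 645 bp (C4-2B alone), against 2082 and 1692 bp at members with a peak in both lines.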
